A study of Mus musculus with 2 samples.

Results

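Pericentral sinusoidal endothelial cells line the liver capillaries next to the central vein, where blood leaves the lobule. They were picked out cell by cell from droplet single-cell RNA sequencing of mouse liver, from the unique molecular identifier (UMI) counts of 27 genes, in which 1 UMI stands for 1 captured RNA molecule. A barcode was kept with 200 genes or more and no more than 25% of its UMIs from mitochondrial genes. It was called sinusoidal when Stab2, Clec4g, Dnase1l3, Oit3 and Gpr182 together gave 3 UMIs or more and outnumbered Vwf, Ly6a and Ly6c1, with at most 1 UMI of Ptprc, Cd3e, Cd79a and Clec4f. It was called pericentral when Wnt2, Rspo3, Wnt9b, Kit, Cdh13 and Lhx6 together outnumbered Dll4, Efnb2, Ltbp4, Msr1, Ntn4, Adam23 and Il1a. Cells with more than 1 UMI of Esm1 and Selp together were set aside. This left 217 cells of 8172 kept cells, of which 14 came from the pIVCL library and 203 from the Control library. Sinusoidal cells that passed the same filters but leaned the other way are called periportal, and numbered 184 in pIVCL and 765 in Control.

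The pIVCL library came from C57BL/6 mouse liver 6 weeks after the inferior vena cava was partly ligated, an operation that narrows the vein draining the liver and raises pressure in the portal vein. The Control library came from C57BL/6 mouse liver that the labels title healthy. Ligation began at 8 to 10 weeks of age, in a growth protocol that is given in the same words for both samples, so the groups rest on the genotype label and the title. A sham operation and the number of animals per library are not given in the sources used here, and both suspensions mixed hepatocytes with non-parenchymal cells.

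In the liver lobule, endothelial cells near the central vein secrete the Wnt ligands WNT2 and WNT9B and the Wnt enhancer R-spondin 3. These signals act on neighbouring hepatocytes, which then express pericentral enzymes such as glutamine synthetase. KIT is the receptor for stem cell factor, Cdh13 encodes the membrane-anchored T-cadherin, and Lhx6 encodes a LIM-homeobox transcription factor. Periportal sinusoids, at the inflow side, are marked instead by the Notch ligand gene Dll4 and the ephrin gene Efnb2.

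The genes whose molecules chose these cells were looked up on the mouse genome build GRCm38. Wnt2 lies on chromosome 6 at 17988940 to 18030585 on the minus strand, Rspo3 on chromosome 10 at 29452416 to 29535867 on the minus strand, and Kit on chromosome 5 at 75574916 to 75656722 on the plus strand. Wnt9b lies on chromosome 11 at 103727364 to 103749821 on the minus strand, Cdh13 on chromosome 8 at 118283733 to 119324921 on the plus strand, and Lhx6 on chromosome 2 at 36081953 to 36105408 on the minus strand. All 6 are annotated as protein-coding. Promoter windows of 4 of them were in the RefSeq table (build GRCm38.p6). Those of Kit, Wnt2 and Wnt9b are shown because their transcripts were detected together in single Control cells. In Control each of the 34 pericentral cells with a Wnt9b UMI also held a Wnt2 and a Kit UMI. Of all 203 pericentral cells of Control, 184 held a Wnt2 UMI and 165 a Kit UMI. These genes chose the cells, so their joint detection is partly set by the rule and shows no link between them. In pIVCL Wnt9b had 0 UMIs, so joint detection with it could not be examined there. The bases are upstream of the annotated gene, read along the gene's strand, with motif matches in capitals.
Kit, chr5:75574737-75574915, plus strand: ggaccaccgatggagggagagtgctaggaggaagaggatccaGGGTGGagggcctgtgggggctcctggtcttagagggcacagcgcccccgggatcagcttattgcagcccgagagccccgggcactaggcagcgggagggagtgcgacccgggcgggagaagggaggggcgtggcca
Wnt2, chr6:18030586-18030695, minus strand: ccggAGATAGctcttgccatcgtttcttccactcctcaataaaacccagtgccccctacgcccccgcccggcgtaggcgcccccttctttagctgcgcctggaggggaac
Wnt9b, chr11:103749822-103750071, minus strand: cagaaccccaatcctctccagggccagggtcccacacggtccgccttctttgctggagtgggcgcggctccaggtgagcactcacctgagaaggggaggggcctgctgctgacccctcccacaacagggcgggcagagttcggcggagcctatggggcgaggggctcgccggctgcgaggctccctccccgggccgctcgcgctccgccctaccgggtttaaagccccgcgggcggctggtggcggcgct

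Words of 4 kinds were searched on both strands of the 250 bases before each RefSeq start. A GATA word was AGATAA, its variant ending in another letter (AGATAG), or either of these with another first letter (TGATAA or else TGATAG). The forkhead word was GTAAACA, the KLF word was CCACCC and the ETS word was CCGGAAGT. Kit held 1 KLF word on the opposite strand, 208 to 203 bases before the start. Wnt2 held a GATA word 246 to 241 bases before the start and another, on the opposite strand and outside the printed stretch, at 9 to 4 bases. Wnt9b held none of the words. Among 27025 genes with a window, 27.1% held a GATA word, 27.7% the KLF word, 3.09% the forkhead word and 2.93% the ETS word, so the matches in Kit and Wnt2 were of the common kinds. The windows were rich in G and C, at 70.8% in Kit, 63.6% in Wnt2 and 72% in Wnt9b. A match is a description of the sequence and not a measured binding site.

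The libraries differed in depth, which bears on each comparison between them. The deposited files held 7042 barcodes with 38154000 UMIs for pIVCL and 3574 barcodes with 24637681 UMIs for Control. The pericentral cells had a median of 4850 UMIs in pIVCL (1185 to 7883) and 6920 in Control (544 to 24182). Together they held 66687 UMIs in pIVCL and 1282377 in Control. Levels are given as counts per 1000000 UMIs (CPM), the UMIs of a gene summed over the cells and scaled by the cells' total, so that 1 UMI is worth 15 CPM in the pIVCL cells and 0.780 CPM in the Control cells. Of the barcode sequences, 13 occurred in both libraries, 2 of them among the Control pericentral cells. Each group is 1 library, so no test between groups was possible. Intervals are exact, at 95%, and cover counting error only, and a difference compares these libraries and has no replicate check. Log2 ratios are of CPM with 20 CPM added to both sides, so those of genes with few molecules are smaller than the plain ratio.

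The selected cells were then described by markers of other liver cells. The rule already limited Ptprc, Cd3e, Cd79a and Clec4f, so low lymphocyte and Kupffer shares are partly set by the selection. The 10 general endothelial genes (among them Cdh5, Pecam1 and Kdr) were all detected in both libraries and made up 1.07% of UMIs in the pIVCL cells and 1.42% in the Control cells. The 15 hepatocyte markers made up 0.912% in pIVCL and 0.872% in Control. Neutrophil and erythroid markers were at 0 in pIVCL, and lymphocyte markers summed to 0.00450% in pIVCL and 0% in Control. Kupffer and macrophage markers summed to 0.00450% in pIVCL and 0.00655% in Control. The 12 stellate cell and mural cell markers, genes of the cells that wrap around vessels, made up 0.166% of UMIs in pIVCL and 0.244% in Control and were uneven. Acta2 was at 0 in both libraries, as were Pdgfrb and Tagln in pIVCL and Col1a1 in Control. A few cells carried many of their molecules: 1 of 14 pIVCL cells held 88 such UMIs and 7 of 203 Control cells held 244 to 754, while no other cell held more than 16 in pIVCL or 11 in Control. Of the 7 Control cells, 5 had only 3 or 4 UMIs of the sinusoidal genes, close to the rule's minimum. These stellate-bearing cells, defined after the values were seen as those with 20 UMIs or more, are kept in the values below, and list medians and named genes that turned or moved most without them are also given without them. Vascular endothelial markers made up 0.304% of UMIs in pIVCL and 0.525% in Control. The summed share hides a split between pIVCL and Control. Of 7 such genes measured, 4 were higher and 3 lower in pIVCL, with a median log2 ratio of 0.41. Edn1, Fbln2 and Fbln5 were past 2-fold higher, at 4.21, 4.07 and 2.78, and Aqp1 was past 2-fold lower, at -1.82. Lymphatic markers made up 0.0225% in pIVCL and 0.0154% in Control, with 20 UMIs or more in 0 pIVCL and 5 Control cells. The highest share of hepatocyte markers in a cell was 2.70% in pIVCL and 12.5% in Control.

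**Figure D1:**
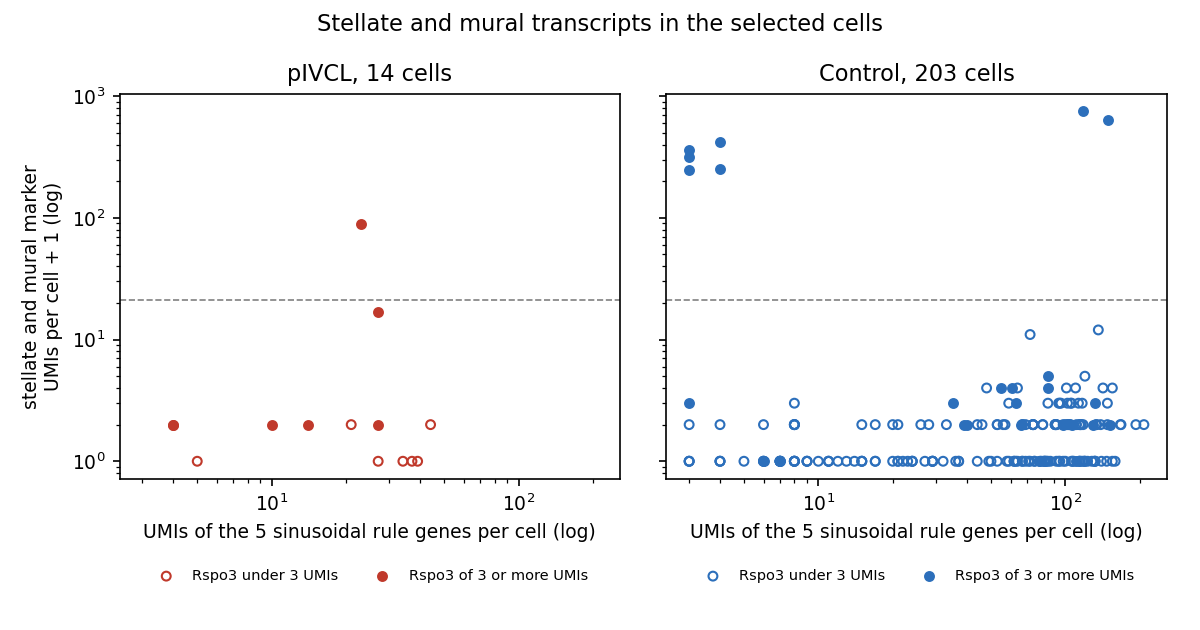
Each point is 1 selected cell, in pIVCL (14 cells, left) and Control (203 cells, right). The horizontal axis gives the cell's UMIs of the 5 sinusoidal genes of the rule, and the vertical axis its UMIs of the 12 stellate and mural markers plus 1, both on log scales. Filled points hold 3 or more Rspo3 UMIs, and the dashed line marks 20 marker UMIs. The 1 pIVCL cell and 7 Control cells above the line are all filled.

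Pericentral cells made up a smaller share of the pIVCL library than of the Control library. They were 14 of 5446 kept cells in pIVCL (0.257%, interval 0.141% to 0.431%) and 203 of 2726 in Control (7.45%, 6.49% to 8.50%), a ratio of 0.0345 (0.0185 to 0.0593). That share depends on how many hepatocytes and blood cells each suspension held. Within pericentral plus periportal cells, the pericentral share was 14 of 198 in pIVCL (7.07%, 3.92% to 11.6%) and 203 of 968 in Control (21%, 18.4% to 23.7%), a ratio of 0.337 (0.181 to 0.579). The intervals did not overlap.

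This share moved with the depth of the cells. Among cells with fewer than 2000 UMIs, 1 of 54 pIVCL cells (1.85%) and 44 of 128 Control cells (34.4%) were pericentral. From 2000 to under 5000 UMIs the counts were 7 of 113 in pIVCL (6.19%) and 31 of 175 in Control (17.7%). With 5000 UMIs or more they were 6 of 31 in pIVCL (19.4%, 7.45% to 37.5%) and 128 of 665 in Control (19.2%, 16.3% to 22.5%), a ratio of 1.01 (0.362 to 2.25). In the deepest cells, therefore, no difference in the share was detectable with 31 pIVCL cells, a split that was chosen after the data were seen. When each cell was first thinned to 1000 UMIs, the share was 22 of 269 in pIVCL (8.18%) and 185 of 815 in Control (22.7%). Thinning also lowered the Esm1 and Selp counts, so cells above that limit at full depth could enter. The pericentral plus periportal cells went from 198 to 269 in pIVCL and from 968 to 815 in Control. The thinned shares are therefore not those of the same cells at equal depth.

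The limit on Esm1 and Selp set aside most sinusoidal cells of pIVCL. Esm1 encodes endocan, a marker of activated and sprouting endothelium, and Selp encodes P-selectin, which captures rolling leukocytes. More than 1 UMI of the pair was found in 269 of 493 sinusoidal cells of pIVCL (54.6%) and in 25 of 1100 of Control (2.27%). Of the cells set aside, 19 leaned pericentral and 236 periportal in pIVCL, against 19 pericentral and 5 periportal in Control. With the limit lifted, the pericentral share was 33 of 453 in pIVCL (7.28%) and 222 of 992 in Control (22.4%), so the limit itself changed the ratio little. Cells with exactly 1 UMI of the pair were 7 of the 14 pIVCL members and 10 of the 203 Control members.

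**Figure D2:**
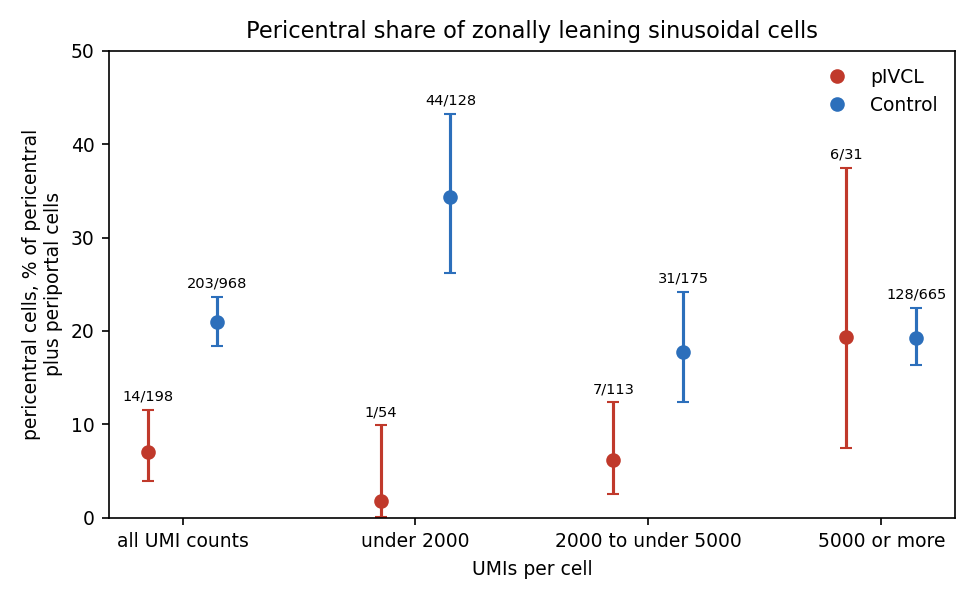
Percent of pericentral plus periportal sinusoidal cells that were pericentral, in all cells and by UMIs per cell, with pIVCL left of Control in each pair. Bars are exact 95% binomial intervals, which cover counting error only. The shares were 7.07% in pIVCL and 21% in Control over all cells, and 19.4% in pIVCL and 19.2% in Control among cells with 5000 UMIs or more.

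Many cells lay near the boundary of the rule. The excess of pericentral over periportal molecules had a median of 3 UMIs in pIVCL, where 5 of 14 cells led by 1 UMI and the highest lead was 14. The median was 5 UMIs in Control, where 41 of 203 cells led by 1 UMI and the highest lead was 71. Just outside, 26 pIVCL cells and 107 Control cells were tied, and these were shallow, with a median of 1060 UMIs in pIVCL and 1051 in Control. Another 20 pIVCL cells and 58 Control cells were short by 1 UMI.

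The molecules that carried the call differed between the libraries. These are the values that chose the cells, given as a description. Rspo3 stood at 660 CPM in pIVCL (44 UMIs, interval 479 to 886) and 268 CPM in Control (344 UMIs, 241 to 298). It was found in 9 of 14 pIVCL cells and 41 of 203 Control cells. The 14 pIVCL cells held 0, 0, 0, 0, 0, 1, 2, 3, 3, 4, 4, 4, 11 and 12 Rspo3 UMIs, with the molecules spread over 9 cells and densest in 2. Stellate cells also express Rspo3, at 218 CPM in pIVCL and 789 CPM in Control, and the stellate-bearing members held 4 of the 44 pIVCL and 82 of the 344 Control UMIs. Without those members Rspo3 stood at 661 CPM in pIVCL and 217 CPM in Control. The Esm1 and Selp limit also bears on this gene. It set aside 19 pericentral-leaning Control cells with 675 Rspo3 UMIs and 19 such pIVCL cells with 71. The higher Rspo3 level in pIVCL is therefore described only for cells within that limit. B cells, which should lack it, held 1 Rspo3 UMI in 952 pIVCL cells and 6 UMIs, in 1 cell, in 123 Control cells, at median depths of 1872 and 3345 UMIs.

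The other pericentral genes did not follow Rspo3 as a group. Wnt2 stood at 405 CPM in pIVCL (27 UMIs, 267 to 589) and 754 CPM in Control (967 UMIs, 707 to 803), and was found in 8 of 14 pIVCL and 184 of 203 Control cells. Kit stood at 240 CPM in pIVCL (16 UMIs, 137 to 390) and 546 CPM in Control (700 UMIs, 506 to 588). Cdh13 stood at 150 CPM in pIVCL (10 UMIs, 71.9 to 276) and 401 CPM in Control (514 UMIs, 367 to 437). For Wnt2, Kit and Cdh13 the pIVCL interval lay wholly below the Control interval. Lhx6 stood at 165 CPM in pIVCL (11 UMIs, 82.3 to 295) and 85.8 CPM in Control (110 UMIs, 70.5 to 103), and these intervals overlapped. Wnt9b had 0 UMIs in pIVCL, where the interval reaches 55.3 CPM, and 56.9 CPM in Control (73 UMIs in 34 cells, 44.6 to 71.6), so its absence in pIVCL cannot be told from a lower level at this depth. Of all pericentral-gene molecules, Rspo3 supplied 40.7% of 108 UMIs in pIVCL and 12.7% of 2708 in Control, and Wnt2 supplied 25% in pIVCL and 35.7% in Control. The sinusoidal genes of the rule were lower in the pIVCL cells for Dnase1l3 (840 CPM in pIVCL and 3539 CPM in Control), Clec4g (825 and 2853 CPM) and Stab2 (870 and 1751 CPM). Gpr182 stood at 960 CPM in pIVCL and 1229 CPM in Control, and Oit3 at 1245 CPM in pIVCL (991 to 1543) and 1057 CPM in Control (1002 to 1115), where the intervals overlapped. Few cells held the whole set of 6 pericentral genes. At least 4 of them were found in 5 of 14 pIVCL cells and 77 of 203 Control cells. From 5 genes upward the counts were 0 pIVCL cells and 28 Control cells, and the Control cells were deeper.

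**Figure D3:**
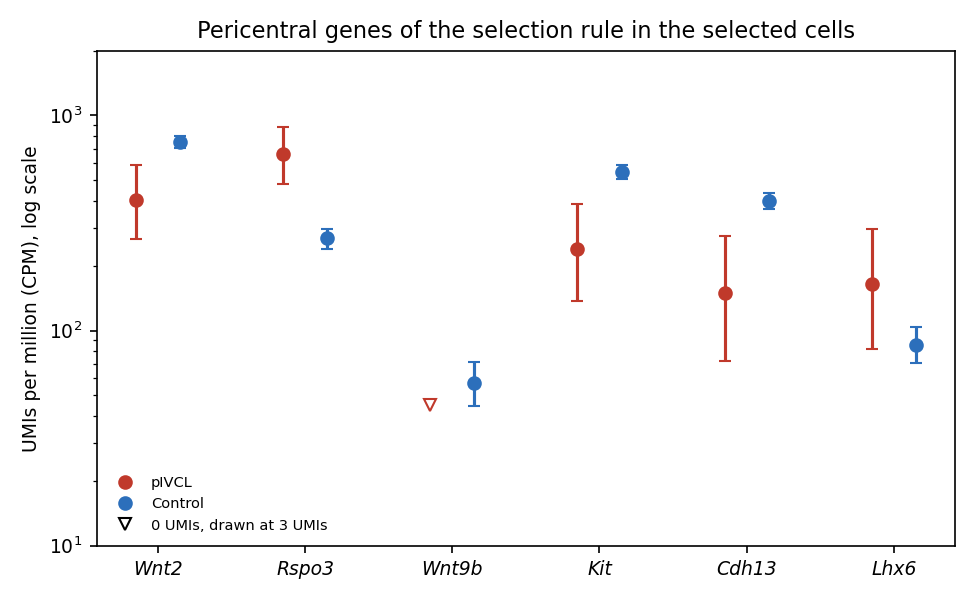
Levels of the 6 pericentral genes that chose the cells, in CPM on a log axis, in pericentral sinusoidal cells, with pIVCL left of Control. Bars are exact 95% Poisson intervals for counting error. The open triangle marks Wnt9b in pIVCL, which had 0 UMIs and is drawn at the level of 3 UMIs. Rspo3 stood at 660 CPM in pIVCL and 268 CPM in Control pericentral cells, and Wnt2 at 405 CPM in pIVCL and 754 CPM in Control. Cells above the Esm1 and Selp limit are left out, among them 19 pericentral-leaning Control cells with Rspo3 at 3536 CPM.

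The same genes were set beside other endothelial cells of each library. Vascular endothelial cells, with at least as many Vwf, Ly6a and Ly6c1 molecules as sinusoidal ones, held Rspo3 at 691 CPM in pIVCL (23 cells) and 1267 CPM in Control (87 cells). The 19 pericentral-leaning cells with Esm1 or Selp held Rspo3 at 630 CPM in pIVCL and 3536 CPM in the 19 such cells of Control. Those 19 Control cells held Wnt9b at 215 CPM, Lhx6 at 272 CPM and Wnt2 at 749 CPM. Kit, in contrast, was low in vascular endothelial cells, at 0 UMIs in pIVCL and 20.1 CPM in Control. Among these sets, the pericentral cells of Control stood below both of those sets in Rspo3 and above the vascular endothelial cells in Kit.

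The Control cells were not uniform. A subset of 19 cells with 3 or more Rspo3 UMIs, taken after the values were seen and without stellate-bearing cells, was compared with the other 177. Both were deep, with medians of 7606 UMIs in the subset and 6565 in the others, but the lead of pericentral molecules had a median of 28 UMIs in the subset and 4 in the others. The subset held more of the other pericentral rule genes, with Wnt9b at 254 against 34.0 CPM and Lhx6 at 281 against 65.1 CPM. Outside the rule, Thbd, which encodes the anticoagulant receptor thrombomodulin, stood at 618 CPM in the subset and 221 CPM in the others (ratio 2.80, 2.17 to 3.58). Fabp4, a fatty acid carrier of endothelial cells and adipocytes, stood at 3563 CPM in the subset and 1124 CPM in the others (3.17, 2.85 to 3.52). Cd9, a tetraspanin, and Jam2, a junctional adhesion molecule, were 2.76 and 2.62 times as high in the subset. Lyve1, the hyaluronan receptor of sinusoidal and lymphatic endothelium, stood at 82.4 CPM in the subset and 433 CPM in the others (0.190, 0.0976 to 0.336). Since Rspo3 molecules chose the subset, its margin and the rule genes are part of the choice.

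Genes outside the rule also varied with the lead of pericentral molecules in Control, without the stellate-bearing cells. Thbd stood at 63.9 CPM in the 41 cells that led by 1 UMI, 240 CPM at a lead of 2 to 4, 186 CPM at 5 to 9 and 405 CPM at 10 or more, beside 84.1 CPM in periportal cells. Fabp4 stood at 719, 1012, 1055 and 2134 CPM over the same groups, beside 450 CPM in periportal cells. The prostaglandin-synthesis gene Ptgs1 stood at 295, 448, 558 and 686 CPM, beside 210 CPM in periportal cells. Cells with the smallest lead were the shallowest, with a median of 1639 UMIs against 7811 at a lead of 10 or more. In them the interval of Fabp4 (578 to 883 CPM) lay above that of periportal cells (432 to 469 CPM), while that of Ptgs1 (208 to 407 CPM) overlapped it (197 to 222 CPM) and Thbd was no higher.

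The ends of the lobule were then compared within each library, pericentral over periportal. The contrast is the one the rule makes, in the same cells, so the values describe what travelled with the rule genes. In Control, of 10297 genes with 30 UMIs or more in the 2 sets together, 0.476% were at least 2-fold higher and 0.311% at least 2-fold lower in pericentral cells. The list of 10 pericentral endothelial genes outside the rule had a median log2 ratio of 0.87, with 8 higher, 2 lower, 4 past 2-fold higher and 1 past 2-fold lower, beside a median of 0.00 over all 10856 genes with 20 UMIs or more. On that wider set 0.451% of genes were past 2-fold higher and 0.295% past 2-fold lower. Of 8 periportal endothelial genes outside the rule, 5 were measured, 1 higher and 4 lower in pericentral cells, with a median of -0.37. The ephrin gene Efnb1 was the 1 past 2-fold lower, at -1.54, and the connexin gene Gja4 the 1 higher, at 0.33. The 15 hepatocyte markers were all lower in pericentral cells in Control, with a median of -0.75, and made up 0.872% of UMIs in pericentral cells and 1.49% in periportal cells.

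In Control the genes outside the rule with the largest pericentral excess included surface and signalling proteins. Plppr5, a phospholipid phosphatase-related membrane protein, stood at 60 CPM in pericentral cells and 4.97 CPM in periportal cells (ratio 12.1, 7.70 to 19.5). Lgals1, which encodes galectin-1, stood at 758 CPM in pericentral and 224 CPM in periportal cells (3.38, 3.10 to 3.68). Plvap, the protein of the diaphragms that bridge endothelial fenestrae, stood at 401 CPM in pericentral and 119 CPM in periportal cells (3.37, 3.00 to 3.79). Without the stellate-bearing cells its log2 ratio went from 1.60 to 1.45 and its periportal level to 88.8 CPM. In pericentral cells with a lead of 10 UMIs or more, Plvap went from 511 to 342 CPM. Fabp4 stood at 1337 CPM in pericentral and 444 CPM in periportal cells, and Thbd at 257 CPM in pericentral and 83.6 CPM in periportal cells. Lfng, a glycosyltransferase that modifies Notch receptors, stood at 115 CPM in pericentral and 28.9 CPM in periportal cells (3.99, 3.17 to 5.03). Jup, the junction protein plakoglobin, and Olfm1, a secreted glycoprotein, had log2 ratios of 1.36 and 1.34. Of the 10, the pericyte gene Rgs5 and the matrix gene Postn, had log2 ratios of 1.5 and 1.42 that went to -0.00 and 0.02 without the stellate-bearing cells.

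Among angiocrine ligands, the secreted factors by which endothelium acts on hepatocytes, 15 of 16 were measured in Control, 9 higher and 6 lower in pericentral cells with a median of 0.13. Without the stellate-bearing cells the median was -0.07, with 6 higher and 7 lower of 13. Gas6, a ligand of the TAM receptor kinases, stood at 673 CPM in pericentral and 296 CPM in periportal cells (2.27, 2.09 to 2.47). Dkk3, of the Dickkopf family, stood at 68.6 CPM in pericentral and 31.5 CPM in periportal cells. Kitl, the ligand of KIT, ran the other way, at 66.3 CPM in pericentral and 141 CPM in periportal cells (0.471, 0.372 to 0.590). Gdf2, a stellate cell product that encodes BMP9, had a log2 ratio of 1.16 and one of 0.00 without the stellate-bearing cells.

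The genes lowest in Control pericentral cells were of mixed origin. Efnb1, an ephrin ligand, stood at 104 CPM in pericentral and 341 CPM in periportal cells (0.304, 0.253 to 0.363). Mecom, a transcription factor gene of arterial endothelium, stood at 13.3 CPM in pericentral and 91.3 CPM in periportal cells (0.145, 0.0839 to 0.235). The laminin chain gene Lama4 stood at 69.4 CPM in pericentral and 213 CPM in periportal cells. The endothelin receptor gene Ednrb had a log2 ratio of -1.15, which was -2.38 without the stellate-bearing cells and turned to 0.38 among cells at or below the median share of stress-gene molecules. The phosphatase gene Ptpre and the gene listed as AC167229.1 had log2 ratios of -1.11 and -1.36. The remaining 4 were genes of hepatocytes. Glul, glutamine synthetase, stood at 133 CPM in pericentral and 555 CPM in periportal cells, of which 1 periportal cell held 794 of 3016 UMIs, and at 2312 CPM in tied cells. Cyp2e1 and Cyp4a14, cytochrome P450 genes, and the glutamate transporter gene Slc1a2 had log2 ratios of -1.15, -1.28 and -1.45. Slc1a2 turned to 0.095 and Cyp2e1 went to -0.21 without the 25% of cells richest in hepatocyte markers, and the part of hepatocyte RNA in the others was not tested.

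**Figure D4:**
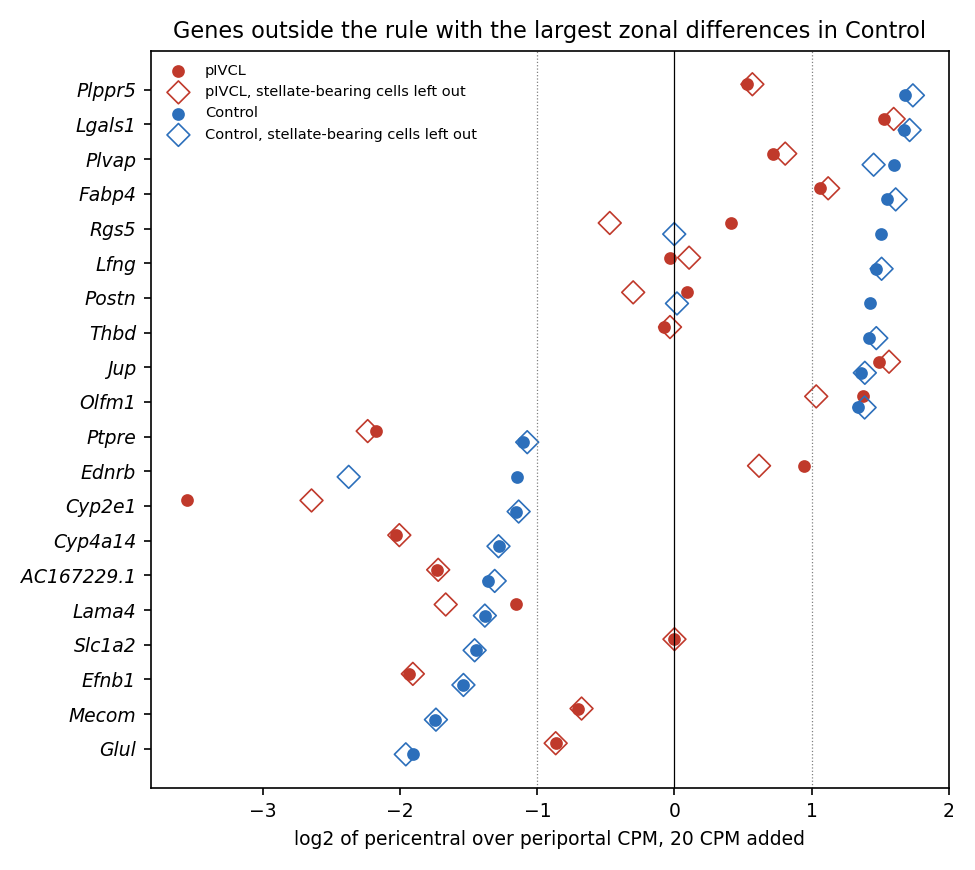
Log2 ratio of pericentral over periportal sinusoidal cells, with 20 CPM added, for the 10 highest and 10 lowest genes outside the rule in Control, with the pIVCL value of each gene above its Control value. Open diamonds leave out the stellate-bearing cells, and dotted lines mark 2-fold. Lgals1, Fabp4, Jup and Olfm1 lay past 2-fold higher in both libraries, while Thbd stood at -0.08 in pIVCL and 1.42 in Control.

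In pIVCL the same contrast rested on 14 pericentral cells, and 3.35% of 4629 genes were at least 2-fold higher and 11.2% at least 2-fold lower. With 20 UMIs or more those shares were 4.14% and 11.7% of 6116 genes. The pericentral list outside the rule had a median of 0.20, with 5 of 9 measured genes higher and 2 past 2-fold, and the sign of that median was not stable under other settings. The periportal list outside the rule had all 5 measured genes lower, 2 of them past 2-fold, with a median of -0.71. Ptgs1 stood at 420 CPM in pericentral and 145 CPM in periportal cells (2.90, 1.84 to 4.44). Fabp4 stood at 6058 CPM in pericentral and 2893 CPM in periportal cells (2.09, 1.88 to 2.33). Lgals1 stood at 360 CPM in pericentral and 112 CPM in periportal cells (3.22, 1.95 to 5.14), Jup at 210 and 61.6 CPM, and Olfm1 at 240 and 80.3 CPM. Efnb1 stood at 75 CPM in pericentral and 343 CPM in periportal cells (0.219, 0.0704 to 0.518). These 6 genes lay on the same side as in Control. Lfng, higher at the pericentral end in Control, showed no such excess in pIVCL. It stood at 15 CPM in pericentral cells, on 1 UMI and so below the measurable level, and 15.8 CPM in periportal cells. Thbd did not separate the ends of the lobule in pIVCL, at 60 CPM in pericentral (4 UMIs) and 64.5 CPM in periportal cells (0.93, 0.243 to 2.55), an interval that lies below the Control ratio of 3.07. Whether the 2 libraries' ratios differ beyond replicate error could not be tested.

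Both chains of the main basement membrane collagen were higher at the pericentral end in pIVCL. Col4a1, a type IV collagen chain, stood at 1874 CPM in pericentral and 705 CPM in periportal cells (2.66, 2.17 to 3.24), and its partner Col4a2 at 795 and 249 CPM (3.19, 2.30 to 4.36). In Control the ratios were 1.17 (1.08 to 1.27) and 1.18 (1.05 to 1.33). Of the 12 capillarization and basement membrane genes measured in pIVCL, 8 were higher and 4 lower at the pericentral end, and the matrix genes Fn1 and Lama4 were past 2-fold lower, at log2 ratios of -1.57 and -1.16. The 5 genes with the largest pericentral excess in pIVCL were Adamts5, an aggrecan-cleaving protease, Col14a1, Nr1d1, a circadian repressor, Reln and Fbln2, at log2 ratios of 2.20, 2.12, 2.04, 2.01 and 1.78. Adamts5 went to 0.91 without the stellate-bearing cell. Col14a1 and Reln, which stellate cells express, lay in 4 and 2 of the 14 cells, and both turned negative when cells were thinned before the call. Fbln2, the matrix protein fibulin-2, was found in 6 cells, at 315 CPM in pericentral (21 UMIs) and 77.4 CPM in periportal cells (4.07, 2.33 to 6.85).

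The 5 lowest genes in pIVCL pericentral cells were products of other cells. Spp1, a bile duct gene, was at 0 in pericentral cells, and 1 periportal cell held 197 of the 200 periportal UMIs. Pigr, Akr1c6, F2 and Paqr9 are expressed by hepatocytes and had log2 ratios of -3.30, -2.98, -2.94 and -2.91. All 15 hepatocyte markers were lower in pericentral cells of pIVCL, 14 of them past 2-fold, and their share of UMIs was 0.912% in pericentral and 3.14% in periportal cells. Their part in the count of lower genes was not tested. Immediate-early and heat shock genes, which respond to cell isolation, were also lower at the pericentral end of pIVCL, 15 of 17 with a median of -0.61, beside 9 higher and 9 lower in Control.

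The last comparison set pericentral cells of pIVCL against pericentral cells of Control. Of 6557 genes with 30 UMIs or more, 3.20% were at least 2-fold higher and 12.3% at least 2-fold lower in pIVCL. With 20 UMIs or more, the set on which the gene lists below are read, the shares were 3.45% and 11.7% of 7836 genes and the median log2 ratio was -0.09. Because 1 pIVCL UMI is worth 15 CPM, a gene below about 3 UMIs in pIVCL has no measurable level there. Periportal values are given beside, since the same libraries were compared there with 184 pIVCL cells and 765 Control cells. The 15 hepatocyte markers had a median log2 ratio of 0.10 in pericentral cells, with 10 higher and 5 lower, and of 1.20 in periportal cells.

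Ctgf and Edn1 had the largest log2 ratios in pIVCL, at 4.34 and 4.21. Ctgf, which encodes the matrix-associated growth factor CCN2, stood at 465 CPM in pIVCL (31 UMIs, 316 to 660) and 3.90 CPM in Control (5 UMIs, 1.27 to 9.10). It came from 4 of 14 pIVCL cells, with 16 UMIs in 1 of them. Edn1, the precursor of the vasoconstrictor endothelin-1, stood at 465 CPM in pIVCL (31 UMIs, 316 to 660) and 6.24 CPM in Control (8 UMIs, 2.69 to 12.3). It was spread over 10 of 14 pIVCL cells and found in 4 of 203 Control cells. Cyr61, a relative of Ctgf, stood at 360 CPM in pIVCL (9 cells) and 32.0 CPM in Control (22 cells), a ratio of 11.3 (6.51 to 19.1). None of these intervals overlapped between the libraries. In periportal cells Ctgf stood at 122 CPM in pIVCL and 9.94 CPM in Control, Edn1 at 128 and 7.55 CPM, and Cyr61 at 136 and 15.5 CPM.

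Ednrb, the endothelin B receptor, was higher as well, at 330 CPM in pIVCL (22 UMIs in 5 cells, 207 to 499) and 42.9 CPM in Control (55 UMIs in 9 cells, 32.3 to 55.8), a log2 ratio of 2.48 that was 3.47 without the stellate-bearing cells. Rgs2, which dampens signalling by vasoconstrictor receptors, stood at 330 CPM in pIVCL and 30.4 CPM in Control, but 16 of its 22 pIVCL UMIs came from 1 cell. Inhbb, a subunit of activin B, stood at 330 CPM in pIVCL (9 cells) and 28.9 CPM in Control (31 cells), a ratio of 11.4 (6.42 to 19.9). Nrarp, a target and inhibitor of Notch signalling, stood at 165 CPM in pIVCL (8 cells) and 16.4 CPM in Control (17 cells), and Mest, an imprinted gene, at 375 CPM in pIVCL and 59.3 CPM in Control. Vcam1, the leukocyte adhesion molecule, stood at 705 CPM in pIVCL and 95.9 CPM in Control. Of its 47 pIVCL UMIs 1 cell held 23, and its log2 ratio of 2.64 was 1.92 without the stellate-bearing cells.

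Of the 10 highest genes, Lyve1 had the most molecules in pIVCL. It stood at 2414 CPM in pIVCL (161 UMIs, 2056 to 2817) and 381 CPM in Control (488 UMIs, 348 to 416), a ratio of 6.34 (5.28 to 7.60). It was found in 13 of 14 pIVCL cells and 103 of 203 Control cells. In periportal cells it stood at 1924 CPM in pIVCL and 449 CPM in Control, a ratio of 4.29 (4.01 to 4.59). Fabp4 likewise stood at 6058 CPM in pIVCL (404 UMIs in all 14 cells, 5482 to 6679) and 1337 CPM in Control (1714 UMIs in 157 cells, 1274 to 1401). Its ratio was 4.53 (4.06 to 5.05) in pericentral and 6.52 (6.14 to 6.92) in periportal cells, where the levels were 2893 CPM in pIVCL and 444 CPM in Control. The fatty acid transporter gene Cd36 stood at 990 CPM in pIVCL and 264 CPM in Control (3.75, 2.84 to 4.90). Fbln2 had 21 UMIs in pIVCL and 0 in Control. Its pIVCL level was 135-fold a limit of 3 UMIs over the Control cells, with the counting error of the 21 UMIs left out. Fbln5, another fibulin, stood at 165 CPM in pIVCL (3 cells) and 7.02 CPM in Control (4 cells). Edn1, Fbln2 and Fbln5 are also on the list of vascular endothelial markers, and the part of vascular endothelial RNA in their values was not tested.

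**Figure D5:**
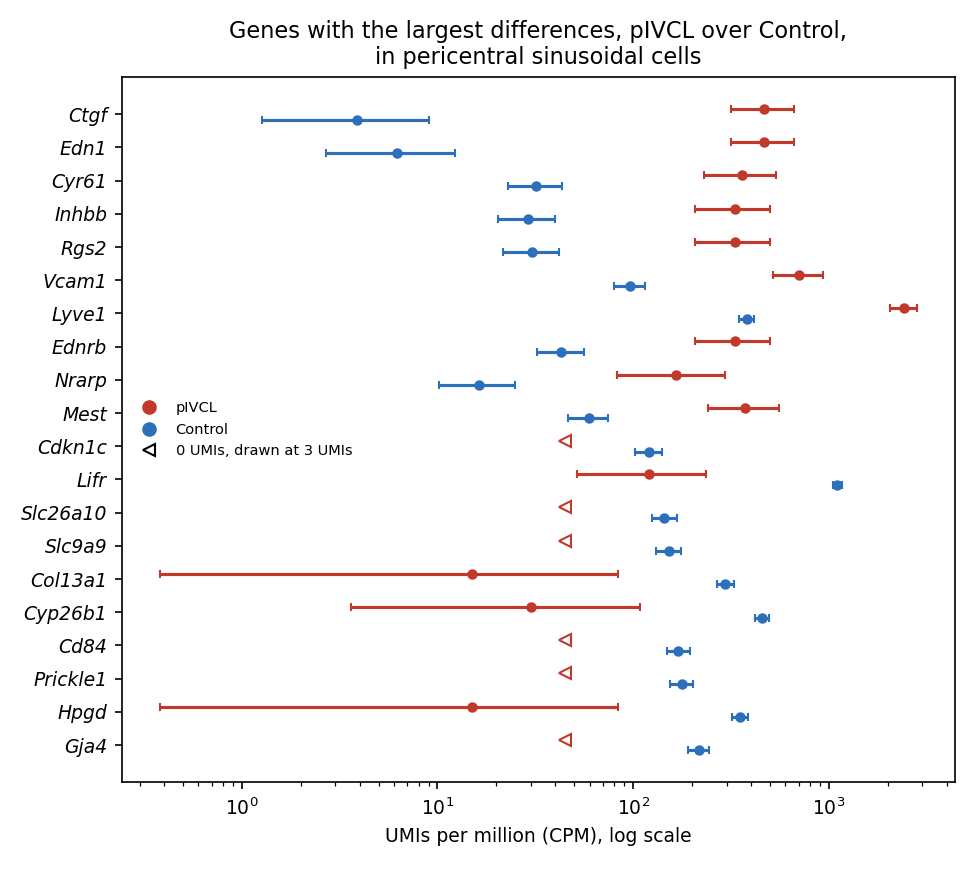
Levels of the 10 highest and 10 lowest genes by log2 ratio of pIVCL over Control in pericentral sinusoidal cells, in CPM on a log axis, with pIVCL drawn above Control. Bars are exact 95% Poisson intervals, and open triangles mark genes with 0 UMIs in pIVCL, drawn at the level of 3 UMIs. Lyve1 stood at 2414 CPM in pIVCL and 381 CPM in Control, and Lifr at 120 CPM in pIVCL and 1102 CPM in Control.

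Genes of the pericentral identity outside the rule were mostly lower in pIVCL. Of the 10, 2 were higher and 8 lower, with 2 past 2-fold higher and 7 past 2-fold lower, and a median of -1.92 beside -0.09 over all genes. In periportal cells the median of the same list was -1.22, with 1 past 2-fold higher and 5 past 2-fold lower. Hpgd, which breaks down prostaglandins, stood at 15 CPM in pIVCL (1 UMI) and 352 CPM in Control (451 UMIs), a ratio of 0.0426 (0.00108 to 0.239). The prostaglandin transporter gene Slco2a1 stood at 120 CPM in pIVCL and 572 CPM in Control (0.210, 0.0903 to 0.416). Car8 stood at 60 CPM in pIVCL and 495 CPM in Control, Plxnc1, a semaphorin receptor, at 180 and 1201 CPM, and Plpp1, a lipid phosphatase, at 300 and 1298 CPM. Thbd stood at 60 CPM in pIVCL (4 UMIs in 3 cells) and 257 CPM in Control (329 UMIs in 102 cells), a ratio of 0.234 (0.0633 to 0.604). In periportal cells Thbd stood at 64.5 CPM in pIVCL and 83.6 CPM in Control (0.772, 0.555 to 1.05). Ptgs1 was the member nearest to no difference, at 420 CPM in pIVCL and 526 CPM in Control (0.799, 0.527 to 1.17).

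Sinusoidal identity genes, those of the scavenging endothelium, split in the same way. Of 17 measured, 4 were higher and 13 lower, 2 past 2-fold higher and 7 past 2-fold lower, with a median of -0.50, beside -0.66 in periportal cells. Cyp26b1, which breaks down retinoic acid, stood at 30 CPM in pIVCL (2 UMIs) and 455 CPM in Control (583 UMIs), a ratio of 0.0660 (0.00797 to 0.239). Its periportal ratio was 0.0558 (0.0288 to 0.0977). The endocytic gene Ehd3 stood at 990 CPM in pIVCL and 3473 CPM in Control (0.285, 0.220 to 0.363), and the mannose receptor gene Mrc1 at 630 CPM in pIVCL and 1959 CPM in Control (0.322, 0.231 to 0.436). Il1r1, the interleukin-1 receptor, was higher, at 180 CPM in pIVCL and 51.5 CPM in Control (3.50, 1.72 to 6.52). Stab1, a scavenger receptor gene, did not separate the libraries, at 1485 CPM in pIVCL and 1365 CPM in Control (1.09, 0.879 to 1.33). The general endothelial list had a median of -0.17, with 4 higher, 6 lower and 3 past 2-fold lower, Cldn5 and Kdr among them at ratios of 0.384 and 0.483.

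The 10 lowest genes were led by a connexin. Gja4, which encodes connexin 37, had 0 UMIs in the 14 pIVCL cells and 277 in 113 of the 203 Control cells (216 CPM, 191 to 243). That Control level was 4.80-fold a limit of 3 UMIs over the pIVCL cells, with its own counting error left out. In periportal cells Gja4 stood at 110 CPM in pIVCL and 168 CPM in Control (0.657, 0.514 to 0.829). Lifr, the receptor subunit for leukaemia inhibitory factor, stood at 120 CPM in pIVCL (8 UMIs in 6 cells) and 1102 CPM in Control (1413 UMIs in 176 cells), a ratio of 0.109 (0.0469 to 0.215). In periportal cells Lifr stood at 361 CPM in pIVCL and 942 CPM in Control (0.384, 0.337 to 0.435). Prickle1, of planar cell polarity, Cd84, Slc9a9, Slc26a10 and Cdkn1c, a cell cycle inhibitor, had 0 UMIs in pIVCL and 154 to 227 in Control. Col13a1, a membrane collagen, had 1 UMI in pIVCL and 380 in Control. In periportal cells Cdkn1c and Prickle1 were closer between the libraries, at ratios of 0.700 (0.529 to 0.910) and 0.448 (0.332 to 0.593), while Cd84 and Col13a1 stood at 0.134 and 0.122.

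Secreted signals to hepatocytes were more often lower than higher. Of 14 angiocrine ligands measured, 3 were higher and 11 lower, with 1 past 2-fold higher and 3 past 2-fold lower and a median of -0.52, beside -0.14 in periportal cells. Without the stellate-bearing cells 4 of 12 were higher and 8 lower, with a median of -0.67. Gas6 stood at 135 CPM in pIVCL and 673 CPM in Control (0.201, 0.0914 to 0.382). Bmp2, the endothelial signal for hepcidin, stood at 780 CPM in pIVCL and 1888 CPM in Control (0.413, 0.308 to 0.543). Dkk3 had 1 UMI in pIVCL and 88 in Control, with a log2 ratio of -1.34 that was -2.22 without the stellate-bearing cells. The liver mitogen gene Hgf stood at 225 CPM in pIVCL and 129 CPM in Control, and its ratio of 1.74 had an interval (0.951 to 2.95) that included 1, while its log2 ratio of 0.71 was 1.25 without the stellate-bearing cells. Among iron and BMP genes 3 were higher and 10 lower, with 3 past 2-fold lower and a median of -0.64, beside -0.18 in periportal cells. The iron exporter gene Slc40a1 stood at 30 CPM in pIVCL and 217 CPM in Control (0.138, 0.0167 to 0.504), and the ferritin gene Ftl1 at 1664 CPM in pIVCL and 3583 CPM in Control.

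Other Wnt pathway genes were mostly too low to measure. Of 23 outside the rule, 7 reached 20 UMIs, 4 higher and 3 lower, with 2 past 2-fold lower and a median of 0.11, which was 0.46 over 6 genes without the stellate-bearing cells. The co-receptor gene Lrp6 stood at 90.0 CPM in pIVCL and 229 CPM in Control (0.392, 0.143 to 0.864), and its relative Lrp5 at 240 CPM in pIVCL and 114 CPM in Control (2.11, 1.17 to 3.54). Wls, which Wnt ligands need for secretion, stood at 90.0 CPM in pIVCL and 197 CPM in Control (0.458, 0.166 to 1.01), an interval that included 1. Notch pathway genes divided, with 4 higher and 2 lower and a median of 0.19: Nrarp was higher, while Lfng stood at 15 CPM in pIVCL and 115 CPM in Control and Hes1, a Notch target, at 60 CPM in pIVCL and 144 CPM in Control (0.416, 0.112 to 1.08, which includes 1). Without the stellate-bearing cells the log2 ratio of Hes1 was -0.83, against -1.04 with them.

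The YAP/TAZ list holds target genes, which respond to stretch and stiffness, and genes of the pathway itself, Tead1 and Wwtr1 among them. Of its 8 measured members 7 were higher and 1 lower, 2 past 2-fold higher, with a median of 0.64, beside 0.23 in periportal cells. Ctgf and Cyr61 were the 2 past 2-fold. Crim1 stood at 480 CPM in pIVCL and 280 CPM in Control (1.71, 1.15 to 2.46), and Tead1 at 120 and 53.8 CPM (2.23, 0.926 to 4.64). The median was -0.03 when cells were thinned before the call, which can let in cells above the Esm1 and Selp limit. Flow and shear genes had 7 higher and 7 lower, with a median of -0.04. In that list Edn1, Adm and Piezo1, a mechanically gated channel, were past 2-fold higher (Adm at a log2 ratio of 1.38, and at 1.10 on fewer than 20 UMIs without the stellate-bearing cells) and Thbd and Ramp3 past 2-fold lower, and the flow-induced factor gene Klf2 stood at 600 CPM in pIVCL and 1061 CPM in Control (0.565, 0.402 to 0.774). In periportal cells Klf2 was on the other side, at 1325 CPM in pIVCL and 1006 CPM in Control (1.32, 1.23 to 1.41).

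Capillarization and basement membrane genes, which mark the change of fenestrated sinusoids toward ordinary capillaries, had 8 higher and 5 lower, 3 past 2-fold higher and 2 past 2-fold lower, and a median of 0.10, which was 0.22 without the stellate-bearing cells. Col4a1 stood at 1874 CPM in pIVCL (125 UMIs in all 14 cells, 1560 to 2233) and 636 CPM in Control (815 UMIs in 163 cells, 593 to 681), for a plain ratio of 2.95 (2.42 to 3.56). Col4a2 stood at 795 CPM in pIVCL and 271 CPM in Control (2.93, 2.15 to 3.92), and the laminin chain gene Lamc1 at 150 CPM in pIVCL and 48.3 CPM in Control (3.10, 1.42 to 6.09). In periportal cells the ratios were 1.30 (1.18 to 1.43) for Col4a1, 1.09 (0.923 to 1.28) for Col4a2 and 2.22 (1.61 to 3.01) for Lamc1. The 3 genes lay above Control in both sets of cells, with the Col4a2 interval including 1 in the periportal cells. Of the genes past 2-fold lower, the caveolin gene Cav2 had a log2 ratio of -1.11 in pericentral and -1.21 in periportal cells. Without the stellate-bearing cells Cav2 stood at -1.44 in pericentral cells, with 4 genes past 2-fold higher and 1 past 2-fold lower. Retinoid and prostaglandin genes had 1 of 7 higher, Aldh1a1, at 195 CPM in pIVCL and 63.2 CPM in Control (3.09, 1.58 to 5.58), 3 past 2-fold lower and a median of -0.91. Without the stellate-bearing cells that median was -0.30, again with 1 of 7 higher. In periportal cells it was -0.31 with them and -0.38 without.

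Inflammatory genes were uneven. Adhesion and NF-kB genes had 7 of 10 higher and a median of 0.24, which was -0.07 without the stellate-bearing cells, with Vcam1, Icam1 and Ccl2 past 2-fold higher. Without those cells 4 of 9 measured genes were higher and 5 lower, with Vcam1 and Icam1 past 2-fold, and Ccl2, at a log2 ratio of 1.22, had under 20 UMIs. Icam1 stood at 195 CPM in pIVCL and 65.5 CPM in Control (2.98, 1.52 to 5.37). Type I interferon genes had 10 of 14 higher, 3 past 2-fold higher, and a median of 0.65, beside -0.10 in periportal cells. Isg15 stood at 255 CPM in pIVCL and 81.9 CPM in Control (3.11, 1.75 to 5.23), Ifi44 at 240 and 83.4 CPM (2.88, 1.59 to 4.89), and Ifit1 at 90.0 and 25 CPM (3.61, 1.23 to 8.74). Interferon-gamma response genes had 9 higher and 8 lower with a median of 0.03, and Psmb8 and Socs1 were past 2-fold lower. Without the stellate-bearing cells 7 were higher and 9 lower, with a median of -0.06. Immediate-early and heat shock genes had a median of 0.10 in pericentral cells and 0.72 in periportal cells, with none past 2-fold in the pericentral cells. Without the stellate-bearing cells the pericentral median turned to -0.21, with 7 higher and 10 lower, and the transcription factor gene Atf3 was past 2-fold lower at -1.43.

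Cxcl9 and Cxcl10 encode interferon-induced chemokines that attract cells bearing CXCR3. Cxcl9 stood at 375 CPM in pericentral cells of pIVCL (25 UMIs, 243 to 553) and 122 CPM in those of Control (157 UMIs, 104 to 143), a ratio of 3.06 (1.92 to 4.69). Its molecules were present in 7 of 14 pIVCL cells and 51 of 203 Control cells. After thinning to 1000 UMIs it was found in 2 of 14 pIVCL cells (14.3%, 1.78% to 42.8%) and 16 of 189 Control cells (8.47%, 4.92% to 13.4%), beside 0.337% of pIVCL B cells and 0 of 120 Control B cells (upper bound 3.03%), and 14 shallower Control cells were left out. The thinned shares overlapped, so the higher level was not detectable as more cells at that depth. Cxcl9 was lower at the pericentral end in both libraries, where its ratio to the periportal level was 0.445 (0.286 to 0.664) in pIVCL and 0.430 (0.363 to 0.507) in Control. The periportal levels were 842 CPM in pIVCL and 285 CPM in Control. Among the 5 pIVCL and 104 Control cells at or below the median share of stress-gene molecules, the log2 ratio of Cxcl9 turned to -0.87. Cxcl10 stood at 750 CPM in pIVCL (50 UMIs, 556 to 988) and 414 CPM in Control (531 UMIs, 380 to 451), but 33 of the 50 pIVCL UMIs came from 1 cell, and the log2 ratio of 0.83 turned to -0.44 without the stellate-bearing cells.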

How the data were processed

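Single-cell RNA of 2 mouse liver suspensions was measured with 10x 3' v2 chemistry, and 1 library per group was deposited as a matrix of UMI counts per gene and barcode. Per the submitters' processing notes, the authors made these counts with Cell Ranger 3.0.2 against mm10, with an annotation release that the sources used here do not give. Cell filters, classes and CPM were computed here from those deposited counts with numpy 2.4.6, pandas 2.3.3 and scipy 1.17.1 under Python 3.11.15; matplotlib 3.10.9 drew the plots. The filters on barcodes removed 1596 of 7042 in pIVCL and 848 of 3574 in Control. Intervals were Poisson for sums, Clopper-Pearson for shares and conditional binomial for ratios, all at 95%, and a count of 0 was given a limit of 3 UMIs.

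The members and the 37 gene lists were chosen with earlier results of these data known. Named genes were the 10 highest and 10 lowest by log2 ratio among genes with 30 UMIs or more and 50 CPM or more in one side (the 5 at each end for zonation in pIVCL), outside the rule and not 10 or more times higher in another cell class, plus the list members with the largest ratios. Il1r1, Stab1, Lrp5, Klf2, Piezo1, Cd9 and Jam2 lay outside that rule and were named after their values were seen. Lists were read on genes with 20 UMIs or more. Promoter windows came from RefSeq (GRCm38.p6) and gene positions from the GENCODE annotation of GRCm38. Scrublet, run through scanpy 1.11.5 at an expected rate of 6%, called 3 barcodes in pIVCL and 8 in Control (0.0551% and 0.293%) and none of the members, so it did not work on these data and doublets were not removed. The scripts were tested on simulated data. With 1 library per group, no p-value was computed.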

Additional observations from a re-analysis of the deposited data

Results flagged for a closer look

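Among 102 of the genes named above, all outside the rule, 11 had counting intervals on opposite sides of 1 under the same contrast in the 2 settings compared. The difference itself was not tested, since each setting is 1 library, and many of the genes had been named for extreme values in these same cells. For 8 of them the contrast was pericentral over periportal cells, given as log2 ratios. Higher at the pericentral end in pIVCL and lower there in Control were Ctgf (1.77 in pIVCL and -0.33 in Control), Inhbb (1.00 and -0.43), Lyve1 (0.32 and -0.23), Ednrb (0.94 and -1.15) and the fibulin gene Fbln2 (1.78 and -0.28). Lower at the pericentral end in pIVCL and higher there in Control were the connexin gene Gja4 (-2.70 in pIVCL and 0.33 in Control), Lifr (-1.45 and 0.22) and Ftl1 (-0.69 and 0.27). For Lifr the plain ratios were 0.332 (0.142 to 0.664) in pIVCL and 1.17 (1.10 to 1.24) in Control. For the other 3 the contrast was pIVCL over Control. Klf2 had a log2 ratio of -0.80 in pericentral cells and 0.39 in periportal cells, and Cd9 one of -1.09 in pericentral and 0.61 in periportal cells. Akr1c6 is a hepatocyte enzyme of steroid metabolism. Its log2 ratio was -2.06 in pericentral cells, on 1 pIVCL UMI, and 0.50 in periportal cells. Hepatocyte markers made up 0.912% of UMIs in pIVCL and 0.872% in Control pericentral cells, and 3.14% in pIVCL and 1.49% in Control periportal cells, and their part in the Akr1c6 values was not tested. Leaving out the stellate-bearing cells changed none of these signs. Among cells at or below the median share of stress-gene molecules, however, the Control log2 ratio of Ednrb turned to 0.383. The Control ratio of Ctgf, 0.392, rested on few UMIs and had an interval close to 1 at its upper end (0.122 to 0.973).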

How the results depend on the processing

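The 226 values of shares, counts and list medians recomputed under other settings moved little in 206 cases, and 1273 of 1331 values of single genes did so too. The pericentral share of kept cells, a pIVCL over Control ratio of 0.0345, stayed below 0.1: it was 0.0651 with cells thinned to 1000 UMIs before the call (22 pIVCL and 185 Control cells), 0.0182 with no Esm1 or Selp UMI allowed (7 and 193 cells) and 0.0744 with no limit on them (33 and 222 cells). Thinning before the call also lowered the Esm1 and Selp counts, so the thinned sets can hold cells that the limit set aside at full depth. Within pericentral plus periportal cells the ratio of 0.337 became 1.01 among barcodes with 5000 UMIs or more, a setting chosen after the data were seen. The count of 210 genes past 2-fold higher in pIVCL was 332 with a lead of 2 UMIs or more, 57 after thinning, 341 with no Esm1 or Selp UMI, 388 with 5 CPM added, 56 among genes with 100 UMIs or more and 478 among all detected genes. The count of 809 genes past 2-fold lower was 228 after thinning, 1522 with no Esm1 or Selp UMI, 281 among genes with 100 UMIs or more and 342 with no limit on Esm1 and Selp. The YAP/TAZ median turned to -0.026 after thinning. The adhesion and NF-kB median turned to -0.166 without Rspo3 in the rule, -0.028 without Lhx6 in it and -0.069 without the stellate-bearing cells. The pericentral list's median in pIVCL, pericentral over periportal, turned to -0.032 without the 25% of cells richest in hepatocyte markers and -0.132 as a mean over cells. Among single genes in that contrast, Slc1a2 in Control turned to 0.015 at a 10% mitochondrial limit, 0.315 after thinning, 0.095 without the hepatocyte-rich cells and 0.111 as a mean over cells. In pIVCL, Col14a1 (-1.147), Reln (-0.266) and Akr1c6 (0.367) turned after thinning. In Control, Rgs5 (-1.491) and Postn (-0.933) turned without Rspo3 in the rule, Rgs5 also without the stellate-bearing cells (-0.002), Ednrb among low-stress cells (0.383) and Cyp4a14 as a mean over cells (0.238). Cxcl9 in pIVCL over Control turned to -0.872 among low-stress cells (5 and 104 cells). The causes were not tested. Leaving out a library was not possible with 1 per group. No paired analysis was possible because each group is 1 library. With 66687 UMIs in 14 cells, pIVCL levels below 45.0 CPM cannot be measured.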
